A study of Mus musculus with 2 samples.

Results

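Type I interferon-stimulated genes are the genes that cells switch on when interferon alpha or beta binds its receptor. A list of 39 such mouse genes was read by symbol from a deposited expression table of 17002 genes. Of these, 37 have a row, and Mx1 and Mx2 were not analysed here. The values come from Th17 cells, the interleukin-17-producing type of CD4+ helper T cell. Naive CD4+ T cells from the spleen of C57BL/6 mice were polarised in culture for 3 days, and RNA was sequenced from 1 wild-type and 1 lncRNA-GM-/- library. The knockout mice lack lncRNA-GM, a long non-coding RNA that the study's title links to Th17 differentiation and to the transcription factor Foxo1. Strain, tissue, culture and day are the same in both libraries. The number of mice, any pooling and the cytokines of the medium are not given in the sources used here. With 1 library per genotype there is no replicate spread and no test between genotypes, and differences below are descriptions of these libraries. No row was assigned to lncRNA-GM, so the knockout label was not checked on the targeted gene.

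Type I interferon binds IFNAR1 and IFNAR2, which activate the kinases JAK1 and TYK2. These phosphorylate STAT proteins, among them STAT2, which joins IRF9 in the complex ISGF3, and ISGF3 binds the interferon-stimulated response element (ISRE) in target promoters. Interferon gamma acts through another receptor and leads to binding of the gamma-activated site (GAS), and the genes induced by the 2 routes overlap. In T cells the products restrict viruses, sense foreign nucleic acid and tune signalling, and a low level is present without infection.

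Promoter sequence is shown first because the ISRE is the element that defines this response. RefSeq promoter windows (GRCm38.p6, from 250 bases before to 50 bases after a gene's start) were matched for 30 members. None was matched for Dhx58, Mx1, Mx2, Oas2, Parp14, Parp9, Rtp4, Usp18 and Zbp1. The ISRE core was searched as GAAANNGAAA on both strands, where N is any base. It was found in 13 of these 30 members (43.3%), against 1079 of all 27025 genes with a window (3.99%) and 3.44% of all windows. The stretches below carry the core in capitals, or the same core read from the other strand (beginning with TTTC), and run 5′ to 3′ on the gene's strand. In the capitals of Isg15 and Bst2 the matches overlap. The first 4 belong to genes whose knockout level was below the wild-type level by 1.5-fold or more. Of the other 3, Stat2 and Bst2 were within 1.5-fold and Ifit1 was under the minimum level used below.
Isg15, chr4:156200860-156200911, minus strand: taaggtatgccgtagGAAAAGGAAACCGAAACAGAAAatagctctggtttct
Oas3, chr5:120777710-120777749, minus strand: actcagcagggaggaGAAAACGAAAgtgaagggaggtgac
Trim30a, chr7:104465205-104465244, minus strand: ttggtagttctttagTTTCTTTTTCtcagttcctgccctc
Trim30d, chr7:104507866-104507905, minus strand: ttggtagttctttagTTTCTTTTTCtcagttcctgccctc
Ifit1, chr19:34640770-34640828, plus strand: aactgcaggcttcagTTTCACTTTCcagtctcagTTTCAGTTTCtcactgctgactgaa
Stat2, chr10:128270261-128270300, plus strand: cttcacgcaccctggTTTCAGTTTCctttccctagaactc
Bst2, chr8:71537572-71537617, minus strand: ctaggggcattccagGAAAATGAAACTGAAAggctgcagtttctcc

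The GAS was searched as TTCNNNGAA, which reads the same on both strands, and is shown for 2 transcription factor genes of the list with the match in capitals. It was found in 9 of 30 members (30%), against 9.55% of all genes with a window and 8.3% of all windows. Irf8 carries 2 matches and Irf1 carries 1. In Bst2 a GAS match overlaps the ISRE core printed above.
Irf1, chr11:53769909-53769947, plus strand: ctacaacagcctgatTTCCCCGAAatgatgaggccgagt
Irf8, chr8:120736172-120736228, plus strand: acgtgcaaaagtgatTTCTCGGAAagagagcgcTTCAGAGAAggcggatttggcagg

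Most of the listed genes were lower in the knockout library, by a modest amount at the median and by more in a few. Levels are FPKM, fragment counts corrected for transcript length and library depth, a unit inferred for the deposited values. Ratios are log2 of (knockout FPKM + 1) over (wild-type FPKM + 1), a scale that understates differences of low genes. Of the 37 genes, 27 passed a minimum of 1 FPKM on the mean of both libraries and 10 did not. Among the 27, the knockout level was lower by 1.5-fold or more for 7 genes and higher by that much for 0, and 20 were nearer to equal. Of all 10763 genes past the minimum, 4.76% were at least 1.5-fold lower and 2.42% at least 1.5-fold higher. The ratio was below 0 for 22 of the 27, against 54.8% of all genes. Its median was -0.27 over the 27 and -0.03 over all genes, and the 27 spanned -1.58 to 0.27. Summed over the 37 rows, FPKM was 556 in the wild type and 478 in the knockout.

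**Figure D1:**
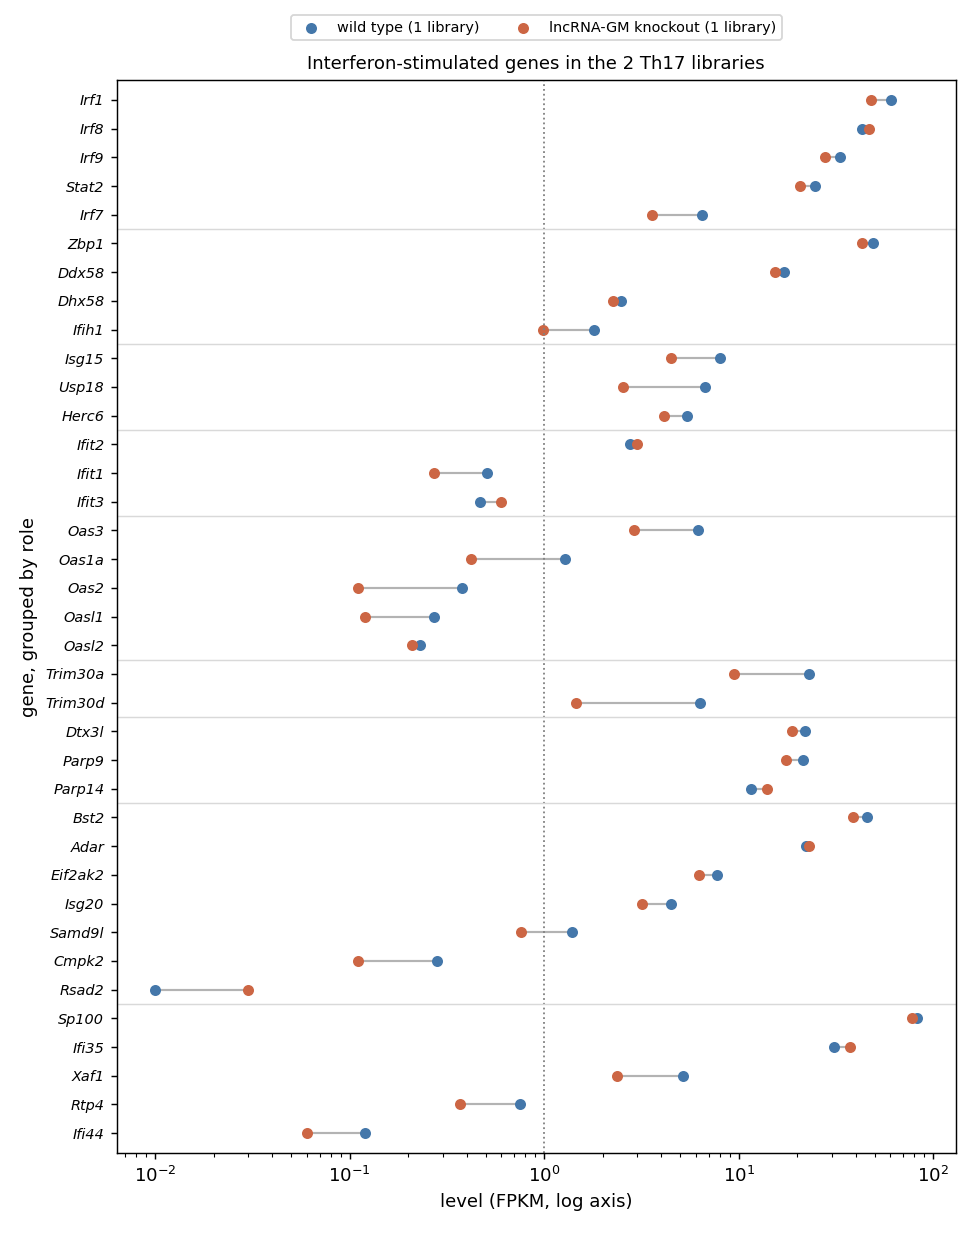
Level of each of the 37 genes in the wild-type and the knockout library, in FPKM on a log axis, grouped by role (thin lines divide the roles); each point is 1 library and the dotted line marks 1 FPKM. The knockout point lies left of the wild-type point for 30 genes. Gaps are wide for Trim30d, Oas2, Oas1a, Usp18 and Trim30a, among others, and nearly absent for Sp100 and Adar.

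The libraries were of like depth, about 19.4 M fragments in the wild type and 19.1 M in the knockout, as recovered from the deposited p-values. The same recovery gave whole numbers of reads, exactly for 16 members and as the nearest of several possible pairs for 21, which are given as "about". From them a 95% exact (Clopper-Pearson) interval of the log2 read ratio was computed, with no pseudocount. It covers counting error only, because neither genotype was replicated and the interval is computed from the read numbers of these libraries. If the reads carry no molecular identifiers, which was not checked, copies made in amplification are counted as separate reads. The interval would then understate even the counting error. By the p-value in the authors' deposited table, 25 of the 37 were lower at a p under 0.05 and 3 were higher, against 23.7% and 17.4% of all rows. That p-value compares the reads of 2 libraries, not the genotypes. The read interval lay below 0 for 23 of the 37 and above 0 for 3. The 2 measures thus do not call all the same genes lower.

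**Figure D2:**
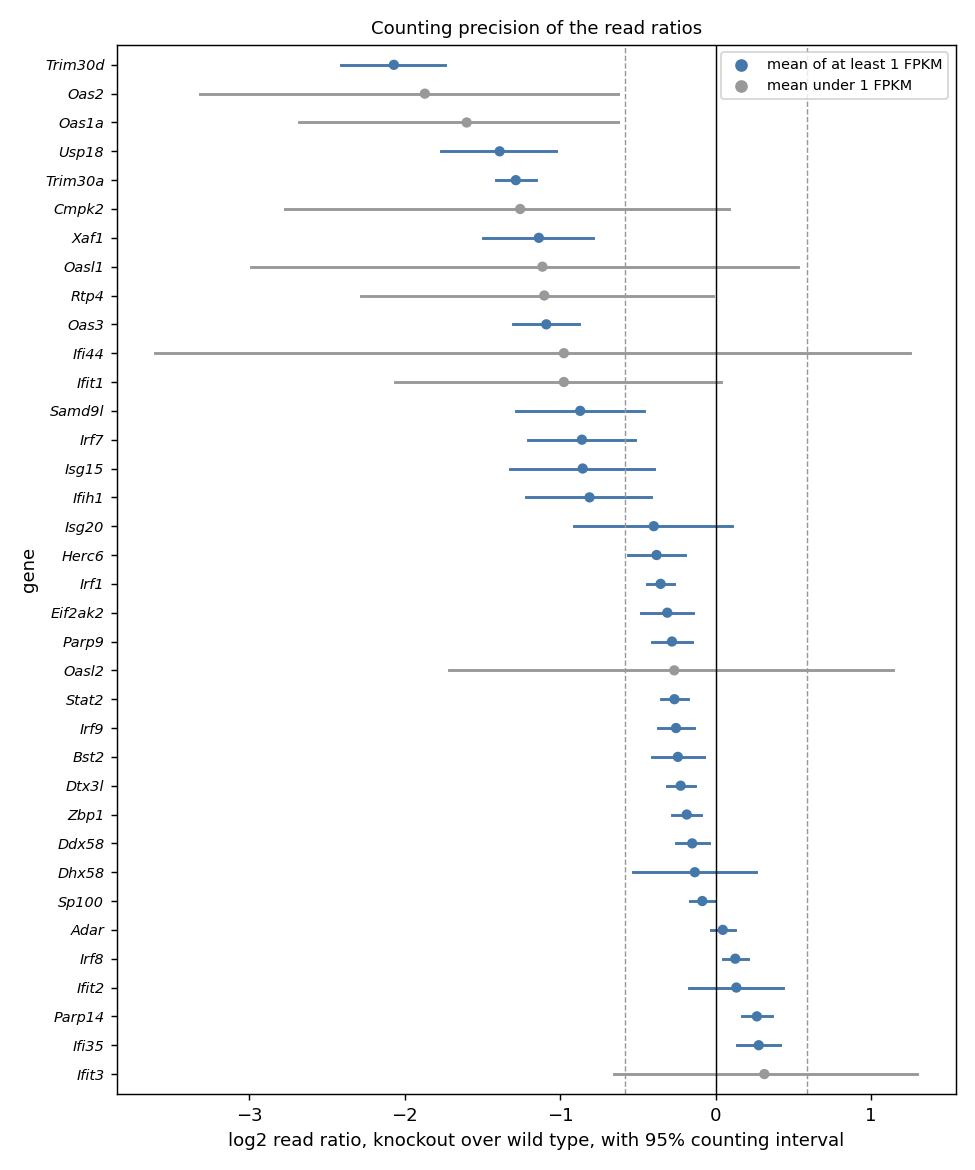
Log2 ratio of recovered reads, knockout over wild type, for all listed genes with a row except Rsad2; bars are 95% counting intervals of these 2 libraries and dashed lines mark 1.5-fold. The intervals of Trim30d, Trim30a, Usp18, Xaf1 and Oas3 end below the lower dashed line, and so do those of Oas1a and Oas2, which are under the minimum level.

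The transcription factors that carry the response were present in both libraries at very different levels, and 1 of 5, Irf7, was lower by 1.5-fold or more. Of all genes past the minimum, 4.76% were lower by that much. Irf7 encodes the factor that amplifies interferon production and is itself strongly induced by interferon. It had 6.44 FPKM in the wild type and 3.59 in the knockout (about 203 and 110 reads), 1.62-fold lower on the FPKM + 1 scale, with a read interval of -1.21 to -0.52. Irf7 (chr7:141263183-141266499) shares 45 exon bases on the other strand with Phrf1, at 21.53 and 23.54 FPKM, and the strandedness of the libraries is not given. The parts of ISGF3 were lower by less. Stat2 (chr10:128270498-128292853) had 24.59 and 20.61 FPKM, a ratio of -0.24. Irf9 (chr14:55603985-55610030), the DNA-binding part, had 33.15 and 27.77, a ratio of -0.25. Each of these 2 read intervals lay below 0, ending at -0.18 for Stat2 and -0.14 for Irf9. Irf9 shares 123 exon bases with Rnf31 on the same strand.

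Irf1 and Irf8, which answer to interferon gamma as well as to type I interferon, were the most abundant factors and differed in direction. Irf1 (chr11:53770014-53778374), an activator of antigen-presentation genes, had 60.94 FPKM in the wild type and 47.67 in the knockout, a ratio of -0.35 with a read interval of -0.44 to -0.27. Irf8 (chr8:120736358-120756694), a factor of myeloid and B cells that activated T cells also express, had 42.99 and 46.92 FPKM, a ratio of 0.12 with a read interval of 0.05 to 0.21. Both carry the GAS matches printed above. Neither is 1.5-fold apart between the libraries.

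In the ISG15 system all 3 members had a ratio below 0, and Isg15 and Usp18 passed 1.5-fold. Among all genes past the minimum, 54.8% had a ratio below 0 and 4.76% were at least 1.5-fold lower. Isg15 (chr4:156199424-156200818) encodes a ubiquitin-like protein that is attached to other proteins during the response. It had 8.05 FPKM in the wild type and 4.48 in the knockout (114 and 62 reads), 1.65-fold lower with a read interval of -1.32 to -0.40. Usp18 (chr6:121245906-121270917) encodes the protease that removes ISG15 and also blocks IFNAR2 signalling, so it is a brake on the response. Usp18 had 6.67 FPKM in the wild type and 2.55 in the knockout (229 and 86 reads), 2.16-fold lower with a read interval of -1.76 to -1.03. Herc6 (chr6:57580992-57665136), the main ligase for ISG15 in mice, had 5.41 and 4.15 FPKM, a ratio of -0.32. The 3 genes together summed to 20.13 FPKM in the wild type and 11.18 in the knockout.

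The 2'-5'-oligoadenylate synthetases, which sense double-stranded RNA and switch on RNase L, were low. All 5 genes of the group had a ratio below 0, as did 9148 of all 17002 rows. Only Oas3 (chr5:120753098-120777684) passed the minimum. Oas3 had 6.17 FPKM in the wild type and 2.90 in the knockout (571 and 264 reads), 1.84-fold lower with a read interval of -1.30 to -0.88. Oas1a (chr5:120896256-120907544) had 1.28 and 0.42 FPKM, from 37 and 12 reads, with a read interval of -2.68 to -0.63. Its transcript is 97.6% identical to that of Oas1g, at 0.13 FPKM in the wild type and listed at 0 in the knockout, so its reads could be divided between them. Oas2 (chr5:120730333-120749886) had 0.38 and 0.11 FPKM, from 26 and 7 reads, with a read interval of -3.32 to -0.63. These 3 neighbours on chromosome 5 were thus lower in the same direction, beyond counting error. The OAS-like genes were counted from too few reads to place. Oasl1 had 11 and 5 reads, and Oasl2 had 11 and 9 reads, with intervals that spanned 0.

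Trim30a and Trim30d encode closely related TRIM proteins of the mouse, of which TRIM30a restrains NF-kB signalling, and they had the lowest FPKM + 1 ratios of the list. The genes lie next to each other on chromosome 7 (104409025-104465193 and 104470014-104507853). Trim30a had 22.98 FPKM in the wild type and 9.43 in the knockout (about 1684 and 680 reads), 2.30-fold lower with a read interval of -1.42 to -1.16. Trim30d had 6.35 and 1.45 FPKM (about 401 and 94 reads), 3-fold lower with a read interval of -2.41 to -1.74. The aligned parts of their transcripts, 1719 bases, were 90.1% identical, and their promoter windows were identical at 276 of 295 aligned bases. Since similar reads may be divided between the genes, their sum is the safer value. It was 29.33 FPKM in the wild type and 10.88 in the knockout, 2.55-fold lower, with a read interval of -1.53 to -1.29. Trim30a was also the single listed gene with a mean of at least 10 FPKM that was at least 1.5-fold lower.

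The sensors of foreign nucleic acid all had ratios below 0, and 0 of 4 passed 1.5-fold on the FPKM + 1 scale. Over all genes past the minimum, 54.8% had a ratio below 0 and 4.76% were at least 1.5-fold lower. Ifih1 (MDA5, chr2:62595618-62646255), a sensor of long double-stranded RNA, had 1.81 and 0.99 FPKM (about 148 and 83 reads), with a read interval of -1.22 to -0.41. Its log2 ratio was -0.50 with 1 FPKM added, and past 1.5-fold at -0.81 with 0.1 FPKM added, -0.62 with both libraries rescaled to the same sum and -0.81 in recovered reads. Ddx58 (RIG-I, chr4:40203777-40239825), which detects RNA with a 5′ triphosphate, had 16.98 and 15.36 FPKM, a ratio of -0.14. Dhx58 (LGP2), a regulator of these sensors, had 2.47 and 2.25 FPKM from 116 and 104 reads, with an interval of -0.53 to 0.26. The ratios of the 3 RNA helicases ran from -0.09 for Dhx58 to -0.50 for Ifih1. The interval of Dhx58 overlapped those of Ifih1 and Ddx58, so its reads do not place it apart from either. The intervals of Ifih1 and Ddx58 did not overlap. Zbp1 (chr2:173206612-173218959), which senses Z-form nucleic acid and can trigger necroptosis, was the most abundant sensor, at 49.04 FPKM in the wild type and 43.10 in the knockout.

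The IFIT proteins bind foreign RNA and block its translation, and none of the 3 genes had a read interval that left out 0. Ifit2 (chr19:34550550-34576534) was the single IFIT gene past the minimum, at 2.75 FPKM in the wild type and 3.01 in the knockout, with a read interval of -0.17 to 0.43. Ifit1 (chr19:34640889-34650009) had 0.51 and 0.27 FPKM from 26 and 13 reads, and Ifit3 (chr19:34583119-34588982) had 0.47 and 0.60 FPKM from 18 and 22 reads. All 3 read intervals spanned 0, that of Ifit1 running from -2.06 to 0.04. Ifit3 is 97.8% identical to Ifit3b, at 0.29 and 0.13 FPKM. Rsad2 (viperin), a radical enzyme that makes a chain-terminating nucleotide, had 1 and 2 reads, and Cmpk2, the nucleotide kinase gene beside it on chromosome 12, had 17 and 7 reads. Ifit1, Ifit3, Rsad2 and Cmpk2, which are often read as markers of a strong type I interferon response, were thus counted from few reads in both libraries.

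Of the PARP9 group, PARP9 and DTX3L form a complex that modifies histones and host proteins, and PARP14 is a related ADP-ribosyltransferase. Parp9 (chr16:35938470-35972621) had 21.30 and 17.53 FPKM, a ratio of -0.27, and Dtx3l (chr16:35926515-35939027) had 21.90 and 18.73 FPKM, a ratio of -0.22. These genes are transcribed in opposite directions and share 458 exon bases. Parp14 (chr16:35831892-35871518), near them on chromosome 16, had 11.62 FPKM in the wild type and 13.96 in the knockout, a ratio of 0.24 with a read interval of 0.17 to 0.36. The group thus held both directions, each beyond counting error and each within 1.5-fold.

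Of the other antiviral effectors, the 5 past the minimum lay within 1.5-fold on the FPKM + 1 scale. Bst2 (tetherin, chr8:71534255-71537472), which holds budding viruses at the cell surface, had 45.72 and 38.63 FPKM, a ratio of -0.24. Eif2ak2 (PKR, chr17:78850504-78882572), the kinase that stops translation on double-stranded RNA, had 7.75 and 6.24 FPKM, a ratio of -0.27. Adar (chr3:89714469-89753455), which edits double-stranded RNA, had 22.27 and 22.99 FPKM with a read interval of -0.03 to 0.12. This interval rests on 1 of 1034 possible pairs, whose wild-type reads ran from 757 to 3065. Adar shares 1365 exon bases with Chrnb2 on the other strand. Samd9l (chr6:3372257-3399571), a growth-restraining antiviral gene, had 1.39 and 0.76 FPKM from 145 and 78 reads, with a read interval of -1.29 to -0.46. The pseudocount holds Samd9l under 1.5-fold, since its log2 ratio was -0.44 with 1 FPKM added, -0.79 with 0.1 FPKM added and -0.87 in recovered reads. Isg20, an RNA exonuclease, had 4.47 and 3.18 FPKM from 79 and 59 reads, with an interval that reached 0.11.

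The remaining listed genes were split. Xaf1 (chr11:72301461-72313733), whose product binds the apoptosis inhibitor XIAP, had 5.17 FPKM in the wild type and 2.38 in the knockout (about 219 and 98 reads), 1.83-fold lower with a read interval of -1.50 to -0.79. Ifi35 (chr11:101448412-101458701), the partner of NMI, had 30.80 and 37.32 FPKM, the highest ratio of the list at 0.27, with a read interval of 0.14 to 0.41. Sp100 (chr1:85649948-85709998), a nuclear body protein gene, was the most abundant listed gene and had 82.81 and 78.03 FPKM, a ratio of -0.08. Rtp4, a chaperone of receptors, had 24 and 11 reads, with an interval of -2.28 to -0.02. Ifi44 had 6 and 3 reads, too few to place.

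The ratio went with the level of the gene. Split at a mean of 10 FPKM, a limit chosen after the values were seen, the 13 lower-level genes held 6 of the 7 that were at least 1.5-fold lower, and 12 of the 13 had a ratio below 0. Their median was -0.50, against -0.05 over all 4293 genes of that level, of which 7.31% were at least 1.5-fold lower. Of the 14 genes at 10 FPKM or more, 1 was at least 1.5-fold lower and 10 had a ratio below 0. Their median was -0.20, against -0.01 over 6470 genes, of which 3.06% were at least 1.5-fold lower. Across the 27 genes, Spearman's rho of mean level and ratio was 0.46, and 0.48 with read ratios that carry no pseudocount. Over all 10763 genes rho was 0.10. These are descriptions across genes of the same 2 libraries, and the mean level holds the values that the ratio is made from.

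**Figure D3:**
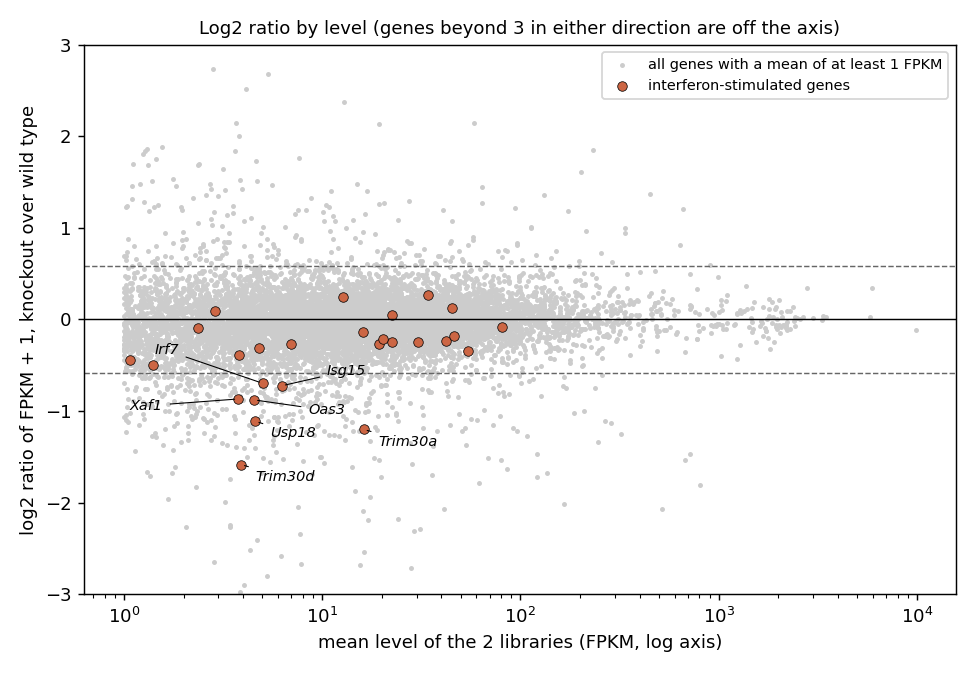
Ratio of FPKM + 1 on the log2 scale, knockout relative to wild type, against the mean FPKM of both libraries on a log axis, for the listed genes past the minimum (orange) and all genes past it (grey); dashed lines mark 1.5-fold. The named genes are the 7 at least 1.5-fold lower, and all but Trim30a have a mean under 10 FPKM.

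Read back against the promoter windows, the ISRE core was present in 4 of the 6 genes that were lower by 1.5-fold or more and have a window, namely Isg15, Oas3, Trim30a and Trim30d. It was present in 5 of 16 genes that were past the minimum and not 1.5-fold lower, and in 4 of 8 under the minimum. Among the 16, the only core of Ddx58, Eif2ak2 and Ifih1 lies after the start, while Isg15, Oas3, Trim30a and Trim30d each have one before it. The 16 also hold Ifih1 and Samd9l, which were past 1.5-fold in recovered reads. The GAS was present in 0 of those 6, in 8 of those 16 and in 1 of those 8. The only GAS matches of Adar and Ifi35, both among the 16, also lie after the start. Trim30a and Trim30d have near-identical windows (276 of 295 aligned bases). They are therefore not separate cases of a core that is present or of a GAS that is absent. Among all genes with a window, the ISRE core was found in 30 of 397 that were at least 1.5-fold lower (7.56%) and in 3.73% of the 8705 past the minimum. The GAS was found in 8.56% of the 397 and in 8.57% of the 8705. A match describes letters in these windows and is not a binding site.

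Among the genes upstream of the response, the type II interferon gene was much lower, and the receptor, brake and sensing sets had medians near 0. Of the interferon ligands, 4 of 19 listed have a row, and the type I genes among them were at the detection limit: Ifna5 had 0.19 and 0.10 FPKM, Ifna7 was listed at 0 and had 0.10, and Ifnz was listed at 0 and had 0.02. Ifng, the type II interferon, had 26.82 FPKM in the wild type and 5.51 in the knockout, 4.27-fold lower on the FPKM + 1 scale. Of 10 receptor and transducer genes past the minimum, 1 was lower by 1.5-fold or more and 0 were higher (4.76% and 2.42% of all genes). The median of these 10 was -0.03. The receptor chains differed in direction, with Ifnar1 at 26.83 and 19.51 FPKM and Ifnar2 at 36.35 and 45.83.

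Among 10 genes that brake interferon signalling, 0 were lower and 0 were higher by 1.5-fold or more (4.76% and 2.42% of all genes). The median of these 10 was 0.07. Socs1, which blocks JAK kinases at both receptors and is itself induced by interferon gamma, had the highest ratio of them. It had 158.24 FPKM in the wild type and 237.63 in the knockout, a ratio of 0.58, just under the 1.5-fold limit, and past it at 0.61 when ratios are centred on the median of all genes and at 0.59 when both libraries are rescaled to the same sum. Socs3, the next most abundant, had 93.79 and 110.16 FPKM. Of 12 nucleic acid sensing genes upstream of interferon and past the minimum, 0 passed 1.5-fold, and the median was 0.02. The most abundant of these were Tmem173 (STING), at 68.03 and 80.50 FPKM, and Irf3, at 38.38 and 46.28 FPKM.

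In a wider set of interferon-stimulated genes outside the list of 39, most ratios were also below 0. Of its 53 genes past the minimum, 10 were lower by 1.5-fold or more and 1 was higher (4.76% and 2.42% of all genes). The ratio was below 0 for 41 of the 53, against 54.8% of all genes, and the set's median was -0.18. Its lowest ratios were those of the p200-family genes Ifi203, at 2.03 and 0.36 FPKM, and Ifi209, at 3.31 and 1.07. Its single higher gene was Slfn8, of the Schlafen family, at 1.73 and 4.54. A set of genes known chiefly as induced by interferon gamma had a lower median than the listed genes. Of its 22 genes past the minimum, 8 were at least 1.5-fold lower and 0 higher, with a median of -0.37. When ratios are centred on the median of all genes, 6 are lower (4.35% of all genes) and 1, Socs1, is higher. When both libraries are rescaled to the same sum, 9 of 23 are lower (6.27% of all genes) and Socs1 is higher. The set's median is then -0.42. Gbp6 had 29.17 and 9.43 FPKM and Gbp2 had 179.47 and 64.35, both guanylate-binding proteins that attack the vacuoles of intracellular microbes. These families hold similar copies, and the sets share some genes, Socs1 among them.

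**Figure D4:**
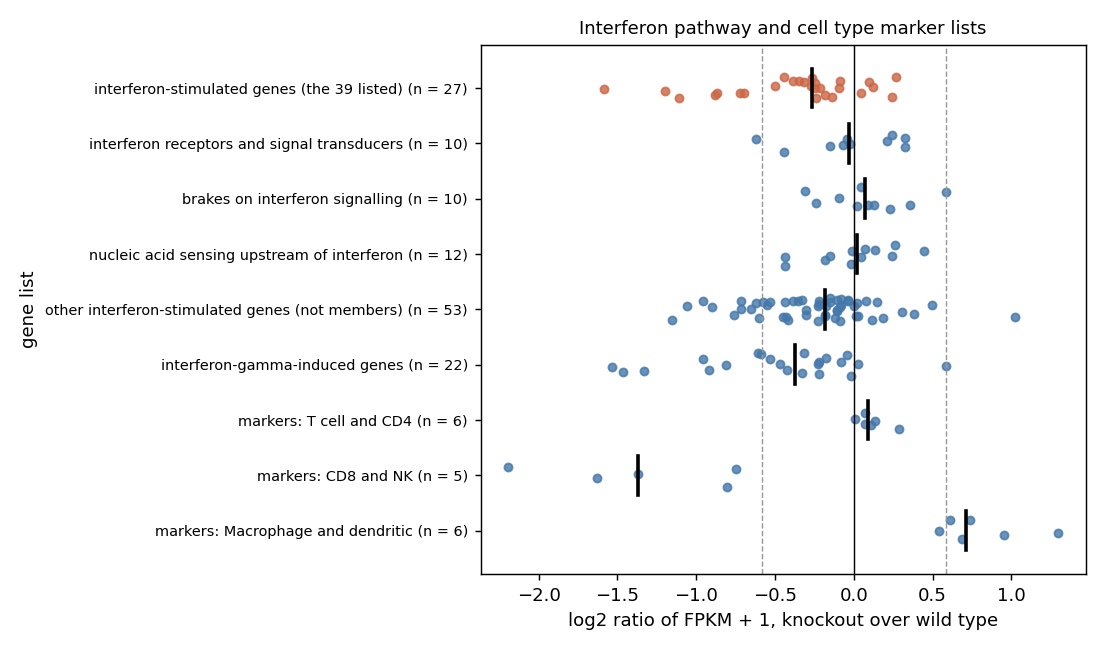
Ratio of FPKM + 1 on the log2 scale, knockout relative to wild type, of each gene past the minimum in the listed interferon-stimulated genes, the related interferon sets and 3 sets of cell type markers; each point is 1 gene, the bar is the set's median and dashed lines mark 1.5-fold. Medians of the interferon sets drawn here run from -0.37 for genes induced by interferon gamma to 0.07 for the brakes, with the listed genes at -0.27, and the CD8 and NK markers lie lower, at -1.37.

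Marker genes of other T cell programmes and of other cell types differed between the libraries as well. For comparison, 4.76% of all genes past the minimum were at least 1.5-fold lower and 2.42% at least 1.5-fold higher. T cell and CD4 markers were within 1.5-fold, 6 of 6, summing to 2111 FPKM in the wild type and 2251 in the knockout. Of 5 Th17 markers, 4 were at least 1.5-fold lower, among them Il17a at 392 and 178 FPKM, and none was at 0. The other, Ccr6, was higher in the knockout and within 1.5-fold, at 3.35 and 4.85 FPKM. All 4 Th1 markers, Ifng included, were at least 1.5-fold lower, summing to 323 and 153 FPKM. All 5 CD8 and NK markers past the minimum were lower as well, with 8 markers summing to 549 and 258 FPKM and Cd8a at 98.07 and 55.73. Cd8b1 had 212.41 FPKM in the wild type, above Cd4 at 174.41. In the knockout Cd8b1 had 125.93 FPKM, below Cd4 at 212.55. Macrophage and dendritic markers went the other way, with 5 of 6 past the minimum at least 1.5-fold higher and a sum of 36.3 and 78.7 FPKM. Of 3 B cell markers past the minimum, 1 was higher, and the 5 summed to 4.53 and 8.16 FPKM. The 3 neutrophil markers were split, with Ly6g at 71.62 and 30.27 FPKM, S100a8 at 0.43 and 1.01, and S100a9 listed at 0 for the wild type with 2.23 FPKM for the knockout. Markers of plasmacytoid dendritic cells, the main makers of type I interferon, summed to 8.64 and 8.48 FPKM, with Siglech at 0.05 and 0.13. In bulk RNA, fewer cells of a type and less RNA per cell cannot be told apart, and the part of these marker differences in the values of the interferon-stimulated genes was not tested.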

How the data were processed

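RNA sequencing of 1 wild-type and 1 lncRNA-GM-/- Th17 library was analysed. The submitters' processing notes name Bowtie2, RSEM and GRCm38.p6, with no versions, and no source used here gives the strandedness. Both expression columns deposited by the authors were read as FPKM from their values because they sum to 517664 and 514343 and not to the fixed total of TPM. The authors' deposited log2 ratio was recomputed within 0.001 for all 17002 rows with 0 set to 0.01. The authors' FDR column is above 1 for 443 genes, so this deposited score was not used.

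Genes were compared by log2 of the FPKM + 1 ratio, over genes with a mean of at least 1 FPKM, with a fold of 1.5. All listed genes with a row are named. Of each other list, up to 2 lowest and 2 highest ratios past 1.5-fold, or else the 2 most abundant genes, were named, and further genes were named after their values were seen. The members and lists were chosen with earlier results of these data known. An item that the lists hold is not reported here.

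Recovering reads was chosen after seeing the data. The authors' deposited p-value follows a comparison of read numbers between 2 libraries with 50.41% of reads in the wild type. For genes at 0 in 1 library, whole reads matched it in 1802 of 1810 cases. Read pairs had to give the deposited p-value and the FPKM ratio within 3% or else 10%. Depth came from 93 genes with 1 transcript of at least 1500 bases (quartiles 18.61 M and 19.55 M fragments). Near copies (at least 95% identity over at least 50% of the shorter transcript) were searched with BLAST 2.17.0 in GENCODE release M21. Coordinates and promoter windows are from RefSeq. The scripts ran under Python 3.11.15 with matplotlib 3.10.9, scipy 1.17.1, pandas 2.3.3 and numpy 2.4.6, and the steps were tested on simulated data. The alternatives changed the pseudocount, the minimum, the scaling, the fold and the treatment of copies.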

Additional observations from a re-analysis of the deposited data

How the results depend on the processing

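With 1 library per genotype no library could be left out. No paired analysis was possible because each genotype has 1 library. The number of listed genes at least 1.5-fold lower, 7, was 3 with a pseudocount of 5 FPKM (2.12% of all genes), 3 with a mean of at least 5 FPKM (3.65%) and 3 with a fold threshold of 2 (1.81%); the stricter minimum tests fewer genes, and the larger pseudocount shrinks ratios of low genes by construction. Under the other 9 alternatives it was between 5 and 9. It was 9 with a pseudocount of 0.1 FPKM (6.81% of all genes) and with the authors' deposited ratio (7.14%). It was also 9 with both libraries rescaled to the same sum (6.27%), against 4.76% of all genes in the main run. With recovered reads it was 9 too, and no share over all genes was computed there. The number higher was 0 under all 12 alternatives run. The share of all genes higher was also small, from 0.873% with a fold threshold of 2 to 3.71% with the authors' deposited ratio. With at most 37 listed genes, a count of 0 is near such shares. The median ratio, -0.27, was -0.28 with a pseudocount of 0.1 FPKM, -0.19 with 5 FPKM, -0.25 with no minimum, -0.24 with a mean of at least 5 FPKM, -0.24 when centred on the median of all genes, -0.26 with Trim30a and Trim30d summed, -0.28 with the ratio of the authors' deposited table, -0.25 without genes that have a near copy and without Trim30a and Trim30d, which alone among those left out were past the minimum, and -0.28 with recovered reads; the cause was not tested. Of single genes, only Oasl2 had another sign under any of these, 0.003 when centred against -0.02. Depth limits the 10 genes under the minimum, of which Rsad2, Ifi44, Oasl1 and Oasl2 have under 12 reads in each library.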
